A study of Mus musculus with 12 samples.

Results

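The 10 genes described here are textbook targets of 2 transcription factors that sense chemical stress. Nqo1, Hmox1, Gclc, Gclm, Txnrd1, Srxn1, Slc7a11 and Gsr are targets of NRF2, and Cyp1b1 and Ugt1a6a are targets of the aryl hydrocarbon receptor, AhR. They were chosen by symbol, with earlier results of these data known. Their mouse Entrez identifiers were looked up in a count table of 27179 genes, where all 10 were present. The cells were mouse embryonic fibroblasts (MEFs), primary connective-tissue cells of wild-type C57BL/6 embryos taken at E13.5, grown in DMEM with 10% FBS under 3% oxygen. Every culture received a compound at 10 µM, either WM-8014, which the labels call an inhibitor of the MYST family of histone acetyltransferases, or WM-2474, which they call its inactive control. Treatment lasted 96 or 240 h. Cultures numbered 5, 6 and 7 stand in each of the 4 groups, giving 12 mRNA libraries, and the design text calls them biological replicates. No vehicle or untreated group was analysed here, so each difference below is between the 2 compounds or between the 2 times. The labels do not say how many embryos gave each culture.

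NRF2, the product of Nfe2l2, is held in the cytoplasm and marked for destruction by KEAP1. Electrophiles and oxidants modify KEAP1, after which NRF2 enters the nucleus, pairs with a small MAF protein and binds antioxidant response elements. BACH1 occupies the same elements as a repressor and leaves them when haem binds it. AhR is a receptor for planar aromatic ligands that pairs with ARNT and binds xenobiotic response elements, and it induces its own repressor AHRR and the enzyme TIPARP. Both pathways supply enzymes that clear quinones, peroxides and aromatic compounds.

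The libraries held 10147466 to 45903190 reads, and 3 reads corresponded to 0.0615 to 0.303 CPM (counts scaled to library totals corrected by TMM). All 10 genes passed the filter on low counts, which left 14136 genes, and the lowest, Ugt1a6a, had 37 to 318 reads in a library. The 9 fibroblast markers examined summed to between 23171 and 39952 CPM and none was at 0, whereas the 7 hepatocyte markers and the 5 erythroid markers were all under 1 CPM in each group. The libraries of cultures 6 and 7 in the WM-2474 96 h group stood apart from the other 10 in Misp3 and Stag3. Misp3 was at 0.724 to 0.943 CPM in them against 79.9 to 285 CPM elsewhere, and Stag3 at 1.81 to 2.5 against 22.9 to 37.5. Leaving them out leaves 1 library in that group, whose spread is then taken from the other groups, and calls at 96 h that are lost in this way are marked. Such a loss can also come from the smaller number of libraries, and these were not told apart. Whether cultures 6 and 7 of that group also stood apart from culture 5 across genes was not settled. The chi-square per degree of freedom in that group was 3.23 (cultures 5 and 6), 3 (5 and 7) and 2.98 (6 and 7), within 2.1 to 7.13 for all replicate pairs. That measure grows with depth, and cultures 5, 6 and 7 held 10147466, 13098453 and 45903190 reads. Its values therefore cannot show whether such a split is present. All 12 libraries are labelled female, yet Y-linked Ddx3y was at 96.3 to 124 CPM and Xist had 0 to 4 reads in each, so the label and the reads differ in the same way in every group.

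To show where these factors could bind beside the start of a member, the 250 bases before each RefSeq start (build GRCm38.p6) were searched on both strands for the letters TGACNNNGC, a core of the antioxidant response element, and GCGTG, the core of the xenobiotic response element. Windows were found for 7 of the 10 members (9 windows, as Txnrd1 has 3). Hmox1, Gclc and Gsr had no entry. The antioxidant letters were in 2 of the 9 windows, against 10.2% of all 32851 windows searched, and the xenobiotic letters in 6 of the 9, against 28.2%. Those 6 were the windows of Srxn1, Gclm and Cyp1b1 and all 3 of Txnrd1, so they are not separate genes. Of the AhR targets Cyp1b1 had the xenobiotic letters and Ugt1a6a did not. The 5 windows below are those with the antioxidant letters (Gclm and Txnrd1) and those of the genes with high responses to the compound that have an entry (Nqo1, Cyp1b1 and Ugt1a6a). Each is written 5′ to 3′ along the gene, and capitals mark the matches on either strand. No matches overlapped.
Gclm, chr3:122245307-122245556, plus strand: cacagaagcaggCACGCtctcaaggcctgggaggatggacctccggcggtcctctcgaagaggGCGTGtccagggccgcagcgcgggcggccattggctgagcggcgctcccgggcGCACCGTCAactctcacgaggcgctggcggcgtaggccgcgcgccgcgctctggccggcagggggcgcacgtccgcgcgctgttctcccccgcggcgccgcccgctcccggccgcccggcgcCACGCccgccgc
Txnrd1, chr10:82858956-82859205, plus strand: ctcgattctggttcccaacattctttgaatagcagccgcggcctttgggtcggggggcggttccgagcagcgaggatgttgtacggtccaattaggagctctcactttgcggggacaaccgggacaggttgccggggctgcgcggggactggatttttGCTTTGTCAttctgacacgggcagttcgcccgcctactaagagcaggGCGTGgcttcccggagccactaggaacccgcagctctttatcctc
Nqo1, chr8:107403206-107403455, minus strand: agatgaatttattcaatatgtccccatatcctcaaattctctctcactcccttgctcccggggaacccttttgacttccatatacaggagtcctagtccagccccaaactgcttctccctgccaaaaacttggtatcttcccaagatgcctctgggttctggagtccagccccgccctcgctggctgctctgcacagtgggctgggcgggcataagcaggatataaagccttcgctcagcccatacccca
Cyp1b1, chr17:79715062-79715311, minus strand: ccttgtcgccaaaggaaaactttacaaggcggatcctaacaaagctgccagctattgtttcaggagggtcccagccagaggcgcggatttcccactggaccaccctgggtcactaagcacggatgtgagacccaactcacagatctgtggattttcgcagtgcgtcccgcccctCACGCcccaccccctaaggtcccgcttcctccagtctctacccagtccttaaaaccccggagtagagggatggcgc
Ugt1a6a, chr1:88134559-88134808, plus strand: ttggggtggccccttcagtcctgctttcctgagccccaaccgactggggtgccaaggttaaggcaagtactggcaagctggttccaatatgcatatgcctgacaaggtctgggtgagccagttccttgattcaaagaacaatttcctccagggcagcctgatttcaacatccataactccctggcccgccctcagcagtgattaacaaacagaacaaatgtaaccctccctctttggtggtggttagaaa
In the Gclm window GCACCGTCA, the antioxidant letters read on the other strand, lay 134 bases before the start, with 3 matches to the xenobiotic letters. The Cyp1b1 window held 1 xenobiotic match 76 bases before the start. The windows of Nqo1, Ugt1a6a and Slc7a11 held neither motif, which says only that these letters are not in these 250 bases. Srxn1 held 1 xenobiotic match and no match to the antioxidant letters as searched. Its window holds tgagtcagc, for example, which differs from those letters only by g in place of c. Other spellings of the antioxidant response element were not searched in any window.

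WM-8014 and WM-2474 cultures differed in a part of the 10 genes at 96 h and in most of them at 240 h. At 96 h 4 members were higher with WM-8014 (Nqo1, Hmox1, Gclm and Ugt1a6a), none was lower and 6 did not pass at an adjusted p under 0.05. In the same comparison 22.8% of the 14136 genes passed, 10.9% higher and 11.8% lower. These counts come from a fit without pairing. With the culture number as a block, 4 members were higher at 96 h and 1, Txnrd1, was lower (adjusted p = 0.0366, edgeR quasi-likelihood test). At 240 h 6 members were higher (the same 4 with Srxn1 and Cyp1b1), 2 were lower (Slc7a11 and Gsr) and 2 did not pass (Gclc and Txnrd1), while 42.6% of all genes passed, 21.2% higher and 21.4% lower. With the block 6 were higher and 3 lower at 240 h, Txnrd1 being the addition (adjusted p = 0.0133, same test). The median log2 fold change of the members was 0.16 at 96 h and 0.23 at 240 h, against 0.00 and 0.01 over all genes tested. Because the members were chosen with earlier results of these data known, their counts and medians describe them and are not independent support. In bulk RNA a gene that is lower may be less abundant per cell or come from fewer cells, and these cannot be told apart.

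**Figure D1:**
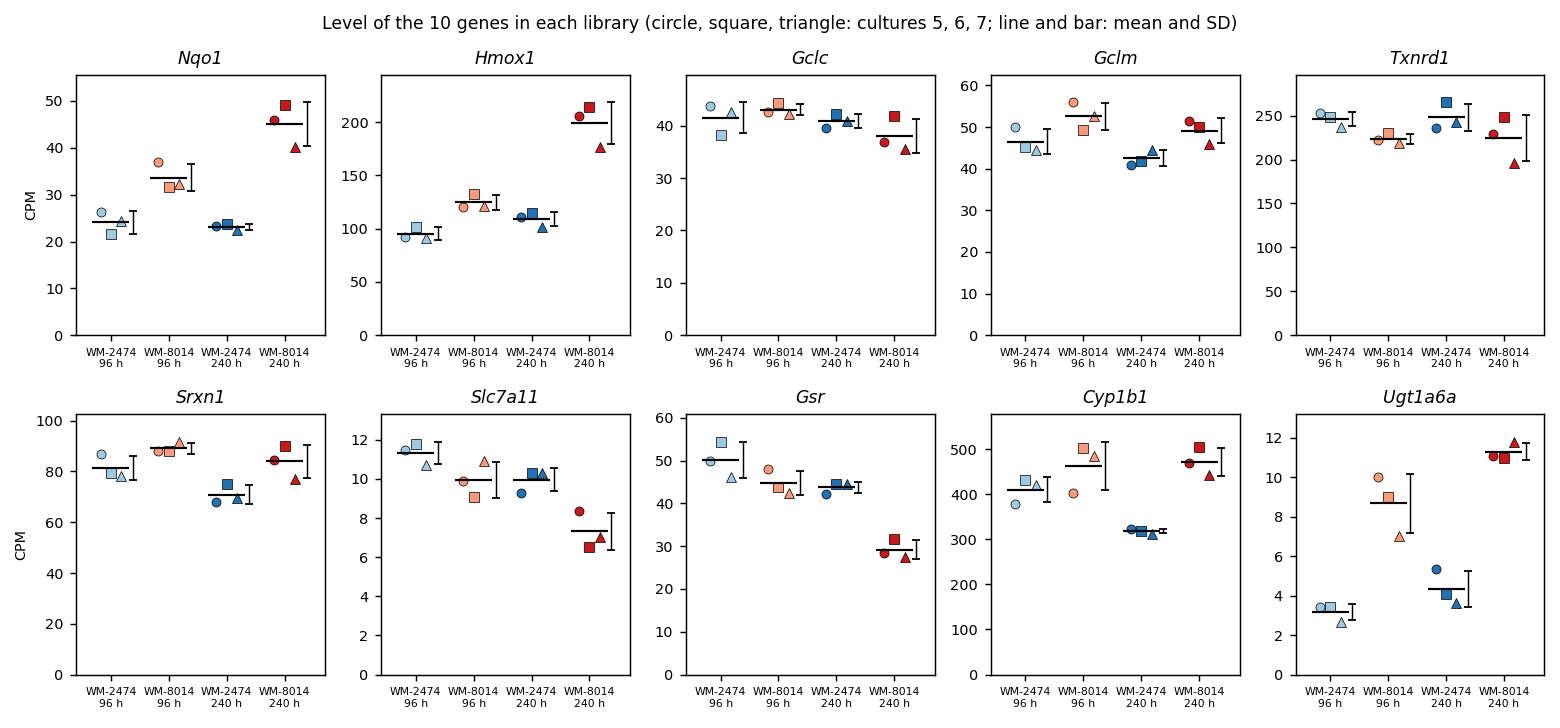
Level of each of the 10 genes in CPM (vertical axis, from 0) in the 12 libraries, by compound and time; points are cultures 5 (circle), 6 (square) and 7 (triangle), with the group mean and SD. Nqo1 and Hmox1 are highest in the 3 WM-8014 240 h libraries, Gsr and Slc7a11 are lowest there, and Ugt1a6a separates the compounds at both times.

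Nqo1 (Entrez 18104, chr8:107388225-107403205) encodes a quinone reductase and is a standard reporter of NRF2 activity. In cultures 5, 6 and 7 it was at 26.4, 21.6 and 24.3 CPM with WM-2474 and 37, 31.6 and 32.3 CPM with WM-8014 at 96 h. At 240 h the values were 23.3, 23.7 and 22.5 CPM with WM-2474 and 45.9, 49.2 and 40.1 CPM with WM-8014. At both times all WM-8014 libraries lay above all WM-2474 libraries. The difference was 1.4-fold at 96 h (log2 fold change 0.48, SE 0.083, adjusted p = 0.000347, edgeR quasi-likelihood test) and 1.95-fold at 240 h (0.96, SE 0.079, adjusted p = 9.26e-09). Without the pair of WM-2474 96 h libraries that stood apart, the 96 h value was 0.35 and no longer passed (adjusted p = 0.108).

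Hmox1 (Entrez 15368, chr8:75093618-75100593) encodes haem oxygenase, which opens the haem ring and releases iron, carbon monoxide and biliverdin. Its levels at 96 h were 92.6, 102 and 91.4 CPM with WM-2474 and 120, 133 and 121 CPM with WM-8014. At 240 h they were 111, 115 and 102 CPM against 206, 214 and 177 CPM. The compound groups did not overlap at either time, and the 3 WM-8014 240 h libraries were the highest of the 12. Hmox1 was 1.31-fold higher with WM-8014 at 96 h (0.39, SE 0.076, adjusted p = 0.00325) and 1.82-fold higher at 240 h (0.86, SE 0.073, adjusted p = 1.18e-06). The 96 h call was lost without culture 5 (adjusted p = 0.0812) and without the libraries that stood apart (0.43, adjusted p = 0.0544). The summed level of 6 macrophage and leukocyte markers also differed between the compounds, at 7.16 to 7.8 CPM against 8.8 to 12.3 CPM at 96 h and 5 to 6.38 against 9.58 to 11.3 at 240 h. Of these, Ptprc was at most 0.477 CPM in any library, and Csf1r reached 6.15 CPM. At 96 h the summed markers of 2 other cell types were lower with WM-8014, 5 endothelial ones at 5.06 to 6.11 CPM against 3.14 to 4.53 and 5 epithelial ones at 2.03 to 3.53 against 0.955 to 1.83, and both overlapped at 240 h. The part of such cells in the differences at 96 h or 240 h was not tested.

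The 4 members of glutathione metabolism differed in direction at 240 h, with Gclm higher, Slc7a11 and Gsr lower and Gclc not passing. Slc7a11 (Entrez 26570, chr3:50364936-50499087), the transporter that brings in cystine for glutathione synthesis, was at 11.5, 11.8 and 10.7 CPM with WM-2474 and 9.92, 9.07 and 10.9 CPM with WM-8014 at 96 h. By 240 h the values were 9.27, 10.3 and 10.3 CPM against 8.37, 6.54 and 7.04 CPM. The groups overlapped at 96 h and were separate at 240 h, where all 3 WM-8014 libraries were the lowest of the 12. Slc7a11 was 1.4-fold lower with WM-8014 at 240 h (-0.49, SE 0.11, adjusted p = 0.000792), a call lost without culture 6 (adjusted p = 0.0525). At 96 h the log2 difference was -0.17 with an interval of -0.38 to 0.05.

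Gclc and Gclm encode the catalytic and the modifier subunit of glutamate-cysteine ligase, the rate-limiting enzyme of glutathione synthesis. Gclc (Entrez 14629, chr9:77754535-77794489) stayed within 35.5 to 44.3 CPM over the 12 libraries, and its compound difference passed at neither time, with log2 intervals of -0.08 to 0.18 at 96 h and -0.22 to 0.04 at 240 h (it passed at 240 h without WM-8014 240 h culture 6, at -0.18). Gclm (Entrez 14630, chr3:122245487-122267215) was at 49.9, 45.1 and 44.4 CPM with WM-2474 and 55.9, 49.4 and 52.6 CPM with WM-8014 at 96 h. The 240 h values were 41, 41.9 and 44.6 CPM against 51.5, 50.1 and 45.9 CPM. The groups overlapped at 96 h by 1 library on each side and were separate at 240 h. Gclm was 1.14-fold higher at 96 h (0.19, SE 0.059, adjusted p = 0.0223) and 1.15-fold higher at 240 h (0.21, SE 0.058, adjusted p = 0.0065). Its 96 h call was lost in 10 of 22 other settings, with an adjusted p of 0.0106 to 0.689 over them and a log2 value of 0.08 without the libraries that stood apart; leaving out WM-2474 culture 6 or 7 or WM-8014 culture 5 or 7 of that time was enough to lose it. Its 240 h call was lost without culture 5 (adjusted p = 0.0759) and without culture 6 (adjusted p = 0.1).

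Gsr (Entrez 14782, chr8:33653238-33698162) encodes glutathione reductase, which returns oxidised glutathione to its reduced form with NADPH. It was at 50, 54.4 and 46.1 CPM with WM-2474 and 48, 43.8 and 42.5 CPM with WM-8014 at 96 h, and the groups overlapped. At 240 h it was at 42.3, 44.6 and 44.5 CPM with WM-2474 and 28.5, 31.6 and 27.5 CPM with WM-8014. The 3 WM-8014 240 h libraries were the lowest of the 12, well below the other 9. Gsr was 1.49-fold lower with WM-8014 at 240 h (-0.57, SE 0.067, adjusted p = 5.59e-07). The 96 h difference of -0.15, with an interval of -0.28 to -0.01, did not pass (adjusted p = 0.102), but it did without WM-2474 96 h culture 7 (-0.23, adjusted p = 0.0351).

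Txnrd1 and Srxn1 serve the thioredoxin branch. Txnrd1 (Entrez 50493, chr10:82833951-82897724), the cytosolic thioredoxin reductase, was at 253, 248 and 237 CPM with WM-2474 and 222, 230 and 219 CPM with WM-8014 at 96 h. The 240 h values were 236, 265 and 243 CPM against 229, 248 and 196 CPM. The groups were separate at 96 h and overlapped at 240 h. The log2 differences of -0.14 (interval -0.30 to 0.03, adjusted p = 0.218) and -0.15 (interval -0.31 to 0.01, adjusted p = 0.131) did not pass. With the culture number, which paired the libraries at 96 h, as a block, the 96 h difference passed (adjusted p = 0.0366), as it did without WM-8014 240 h culture 7 (adjusted p = 0.0237), and the 240 h difference passed without WM-8014 240 h culture 6 (-0.23, adjusted p = 0.00544). Srxn1 (Entrez 76650, chr2:152105524-152111376), sulfiredoxin, which repairs over-oxidised peroxiredoxins, was at 86.8, 79.4 and 78.2 CPM with WM-2474 and 87.9, 88 and 91.7 CPM with WM-8014 at 96 h. At 240 h it was at 67.9, 75.2 and 69.6 CPM against 84.4, 90.2 and 77.2 CPM. WM-8014 libraries lay above WM-2474 libraries at both times, by a narrow gap. Srxn1 was 1.19-fold higher at 240 h (0.25, SE 0.055, adjusted p = 0.0011), and the 96 h difference of 0.14 (interval 0.02 to 0.25) did not pass (adjusted p = 0.0771), though it did in 4 of 22 other settings, such as without WM-2474 96 h culture 5 (adjusted p = 0.0343).

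Of the AhR targets, Cyp1b1 (Entrez 13078, chr17:79706940-79715061) encodes a cytochrome P450 that oxidises aromatic hydrocarbons and oestrogens and is the CYP1 enzyme typical of mesenchymal cells. It was at 379, 432 and 420 CPM with WM-2474 and 402, 503 and 484 CPM with WM-8014 at 96 h, and these groups overlapped. At 240 h it was at 322, 318 and 313 CPM against 470, 504 and 443 CPM, with a wide gap between the groups. Cyp1b1 was 1.49-fold higher with WM-8014 at 240 h (0.57, SE 0.083, adjusted p = 0.000278). At 96 h the difference of 0.17 (interval -0.01 to 0.36, adjusted p = 0.17) did not pass, but it did without WM-8014 96 h culture 5 (0.26, adjusted p = 0.00326).

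Ugt1a6a (Entrez 94284, chr1:88134809-88220002) encodes a UDP-glucuronosyltransferase that conjugates small phenols, and it showed the largest fold difference of the 10 genes at both times. It was at 3.43, 3.4 and 2.68 CPM with WM-2474 and 9.99, 9 and 7.03 CPM with WM-8014 at 96 h. By 240 h it stood at 5.36, 4.09 and 3.61 CPM against 11.1, 11 and 11.8 CPM. All 6 WM-8014 libraries lay above all 6 WM-2474 libraries. The difference was 2.89-fold at 96 h (1.53, SE 0.16, adjusted p = 1.37e-06) and 2.61-fold at 240 h (1.38, SE 0.14, adjusted p = 7.68e-08). At 96 h it also passed without the libraries that stood apart (1.33, adjusted p = 0.00763), the only member of the 4 to do so.

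**Figure D2:**
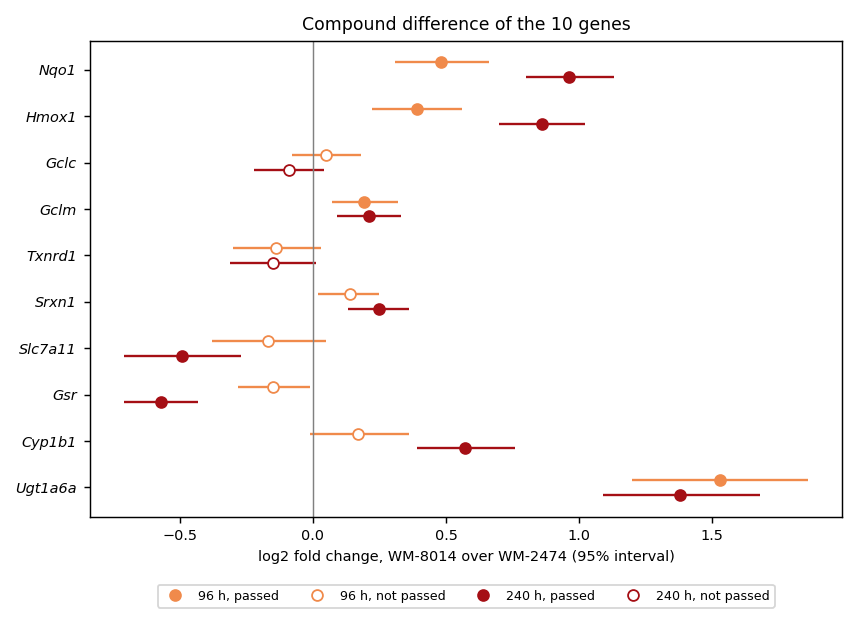
Log2 fold change of WM-8014 over WM-2474 (horizontal axis) for each gene at 96 and 240 h, with 95% intervals; filled points passed at an adjusted p under 0.05. At 240 h the values run from -0.57 for Gsr to 1.38 for Ugt1a6a, with Gclc and Txnrd1 not passing.

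Genes of the Ugt1a locus have their own first exons and share the remaining exons, so reads of the shared part may be divided among them, and their values are uncertain. Of 8 other genes of the locus on the list, 7 were found and 2 were above the filter. Ugt1a7c was at 5.48, 3.76 and 4.36 CPM with WM-2474 and 8.63, 7.91 and 7.03 CPM with WM-8014 at 96 h, and at 5.36, 3.6 and 2.53 against 9.08, 7.12 and 6.75 CPM at 240 h. The compounds were separate at both times, and the difference passed (0.82, adjusted p = 0.00769 at 96 h; 0.97, adjusted p = 0.000958 at 240 h). The 96 h call was lost without WM-2474 96 h culture 7 (adjusted p = 0.0601), without culture 6 (adjusted p = 0.127) and without the libraries that stood apart (0.52, adjusted p = 0.4). Ugt1a6b, the near-identical neighbour of Ugt1a6a, rested on 2 to 18 reads in a library, with group means of 0.237 and 0.974 CPM at 96 h and 0.165 and 0.698 CPM at 240 h, WM-2474 first. It passed in the same direction (adjusted p = 0.00155 and 0.0016; at 96 h 0.0962 without the libraries that stood apart) and is named here after its values were seen. The other 5 had at most 1 read in any library.

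Compared per kilobase of the gene length deposited with the counts, the members spanned a wide range. In the WM-2474 96 h group Cyp1b1 was highest at 80 ± 5.5 CPM per kb (SD, n = 3), followed by Txnrd1 at 61.3 ± 2 and Hmox1 at 60.5 ± 3.7. Gclm at 31.6 ± 2 and Srxn1 at 31.5 ± 1.8 came next, then Gsr at 18.8 ± 1.5, Nqo1 at 15.5 ± 1.6 and Gclc at 12.1 ± 0.83. Slc7a11 at 1.23 ± 0.063 and Ugt1a6a at 0.961 ± 0.13 were lowest. Txnrd1 and Hmox1, and likewise Gclm and Srxn1, were not separated beyond their SDs. In the WM-8014 240 h group Hmox1 led at 126 ± 12 CPM per kb, ahead of Cyp1b1 at 92.1 ± 5.9 and Txnrd1 at 55.7 ± 6.5. There Gclm (33.5 ± 2), Srxn1 (32.5 ± 2.5) and Nqo1 (29 ± 3) overlapped within their SDs, as did Gclc (11.1 ± 0.97) and Gsr (10.9 ± 0.79). Ugt1a6a at 3.42 ± 0.14 stood above Slc7a11 at 0.793 ± 0.1 in that group. The order depends on the deposited length, which is 1 value per gene. The place of Ugt1a6a is further uncertain, because reads of exons shared with its locus may be divided.

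From 96 to 240 h the changes were read under each compound. Under WM-2474 1 member rose from 96 to 240 h (Ugt1a6a) and 3 fell (Srxn1, Gsr and Cyp1b1), while 38.9% of all genes passed, 19.8% higher and 19.1% lower at 240 h. Under WM-8014 3 rose (Nqo1, Hmox1 and Ugt1a6a) and 3 fell (Gclc, Slc7a11 and Gsr), while 49.7% of all genes passed, 24.8% higher and 25% lower. Hmox1 rose 1.6-fold under WM-8014 (0.68, adjusted p = 7.58e-06), and its value under WM-2474 was 0.20 (interval 0.04 to 0.37, adjusted p = 0.0524, passing in 10 of 22 other settings). Nqo1 rose under WM-8014 by 0.43 on the log2 scale (adjusted p = 0.000142), against -0.05 (interval -0.23 to 0.12) under WM-2474. Gsr fell under both compounds, by 0.18 under WM-2474 (adjusted p = 0.0271, lost in 7 of 22 other settings) and by 0.60 under WM-8014 (adjusted p = 2.3e-07). Slc7a11 fell by 0.49 under WM-8014 (adjusted p = 0.000984), with -0.17 (interval -0.37 to 0.04) under WM-2474.

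Cyp1b1 fell under WM-2474, from a mean of 410 ± 28 CPM to 318 ± 4.6 CPM (SD, n = 3; log2 fold change -0.37, adjusted p = 0.00502), and its means under WM-8014 were 463 ± 53 and 472 ± 30 CPM (0.03, interval -0.16 to 0.21). The fall was lost without culture 7 (adjusted p = 0.112) and without the libraries that stood apart (-0.25, adjusted p = 0.156). Ugt1a6a rose under WM-2474 by 0.53 (adjusted p = 0.0163), a call lost in 6 of 22 other settings (0.34 without WM-2474 96 h culture 7, 0.38 without WM-2474 240 h culture 5), and under WM-8014 by 0.38 (adjusted p = 0.0219), lost in 4 of 22 (0.25 without WM-8014 96 h culture 7). Srxn1 fell by 0.19 under WM-2474 (adjusted p = 0.00887), lost without WM-2474 240 h culture 5 (adjusted p = 0.0564) and without culture 5 (-0.11, adjusted p = 0.239). Gclc fell by 0.16 under WM-8014 (adjusted p = 0.0361), lost in 9 of 22 settings. Txnrd1 was at 0.01 and 0.00, and Gclm at -0.12 and -0.10, under WM-2474 and WM-8014, and neither passed.

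**Figure D3:**
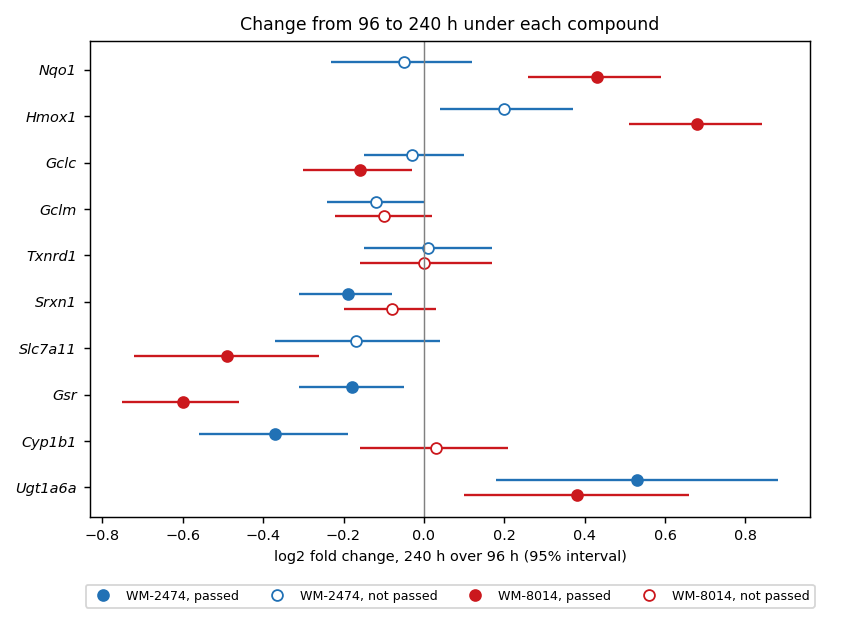
Log2 fold change from 96 to 240 h (horizontal axis) under WM-2474 and under WM-8014 for each gene, with 95% intervals; filled points passed at an adjusted p under 0.05. Nqo1 and Hmox1 rose under WM-8014, and Cyp1b1 fell under WM-2474.

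Whether the compound difference itself changed between the times was asked with an interaction term, which 10.7% of all genes passed, 5.15% with a higher and 5.53% with a lower log2 difference at 240 h. Of the 10 members 2 passed upward, Nqo1 (0.48, adjusted p = 0.00975) and Hmox1 (0.47, adjusted p = 0.0129), and Gsr passed downward (-0.42, adjusted p = 0.00476). The Nqo1 call was lost without culture 6 (adjusted p = 0.0576), the Hmox1 call without culture 5 (adjusted p = 0.215) and without the libraries that stood apart (adjusted p = 0.11), and the Gsr call without culture 5 (adjusted p = 0.0623) or culture 7 (adjusted p = 0.0806). Cyp1b1, at 0.40 with an interval of 0.14 to 0.66, did not pass (adjusted p = 0.0585), though it did in 6 of 21 other settings. For Ugt1a6a the interaction was -0.15 with an interval of -0.60 to 0.30. The remaining members, Gclc (-0.14), Gclm (0.02), Txnrd1 (-0.01), Srxn1 (0.11) and Slc7a11 (-0.32), did not pass.

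Of 14 regulators of the 2 pathways, 1 was higher and 2 lower with WM-8014 at 96 h, and 6 were higher and 3 lower at 240 h (medians 0.03 and 0.15). Among all genes tested 22.8% passed at 96 h and 42.6% at 240 h. Nfe2l2, the gene for NRF2, was at 103, 103 and 105 CPM with WM-2474 and 121, 118 and 116 CPM with WM-8014 at 240 h, a separate and small difference (0.18, adjusted p = 0.000451), and its 96 h difference of 0.10 did not pass (adjusted p = 0.0663). Keap1, whose product holds NRF2 back, had differences of 0.00 (interval -0.11 to 0.11) and -0.02 (interval -0.13 to 0.09). Bach1, the repressor at antioxidant response elements, was at 89.5, 88.3 and 89.6 CPM with WM-2474 and 66.6, 65.9 and 69.9 CPM with WM-8014 at 240 h. That was 1.32-fold lower (-0.40, adjusted p = 4.23e-08), after a smaller difference at 96 h (-0.13, adjusted p = 0.0243, lost in 8 of 22 other settings), and the interaction passed (-0.28, adjusted p = 0.00212). Sqstm1, whose product p62 binds KEAP1, was higher at 96 h (0.10, adjusted p = 0.0405, lost in 12 of 22 settings) and at 240 h (0.20, adjusted p = 7.87e-05). Mafk, a small MAF partner, was lower at 96 h (-0.24, adjusted p = 0.00805), a call lost without culture 7 (adjusted p = 0.12). Without the libraries that stood apart none of the 14 passed at 96 h, with Bach1 at -0.10 (adjusted p = 0.385), Sqstm1 at 0.11 (adjusted p = 0.256) and Mafk at -0.26 (adjusted p = 0.135).

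On the AhR side, Ahr itself was at 47.1, 42.4 and 34.1 CPM with WM-2474 and 55.6, 62 and 57.4 CPM with WM-8014 at 240 h. The groups were separate, but the difference of 0.51 (interval 0.08 to 0.95) did not pass (adjusted p = 0.0591, passing in 7 of 22 other settings). At 96 h the groups overlapped, at 42.7, 61.8 and 43.5 CPM against 34, 50.7 and 39.3 CPM (-0.24, interval -0.69 to 0.22), with culture 6 the highest in both. Ahrr, the repressor that AhR induces, was at 2.25, 1.82 and 1.63 CPM with WM-2474 and 3.63, 3.08 and 4.79 CPM with WM-8014 at 240 h. It was 1.99-fold higher (0.99, adjusted p = 0.000551), with 0.05 (interval -0.38 to 0.48) at 96 h, and it fell from 96 to 240 h under WM-2474 (-0.64, adjusted p = 0.0193; -1.04, adjusted p = 0.0244, without the libraries that stood apart). Tiparp, another gene AhR induces, was lower with WM-8014 at 240 h (-0.35, adjusted p = 7.09e-05). Arnt, the partner of AhR, had differences of 0.11 (adjusted p = 0.0877) and 0.03 (adjusted p = 0.636). Cyp1a1, the most inducible AhR target in many tissues, had 2, 1 and 4 reads in the WM-8014 240 h libraries, 1 read in all at 96 h with WM-8014 and none with WM-2474, and 3 reads stand for 0.0615 to 0.303 CPM by counting alone, so no fold is given.

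**Figure D4:**
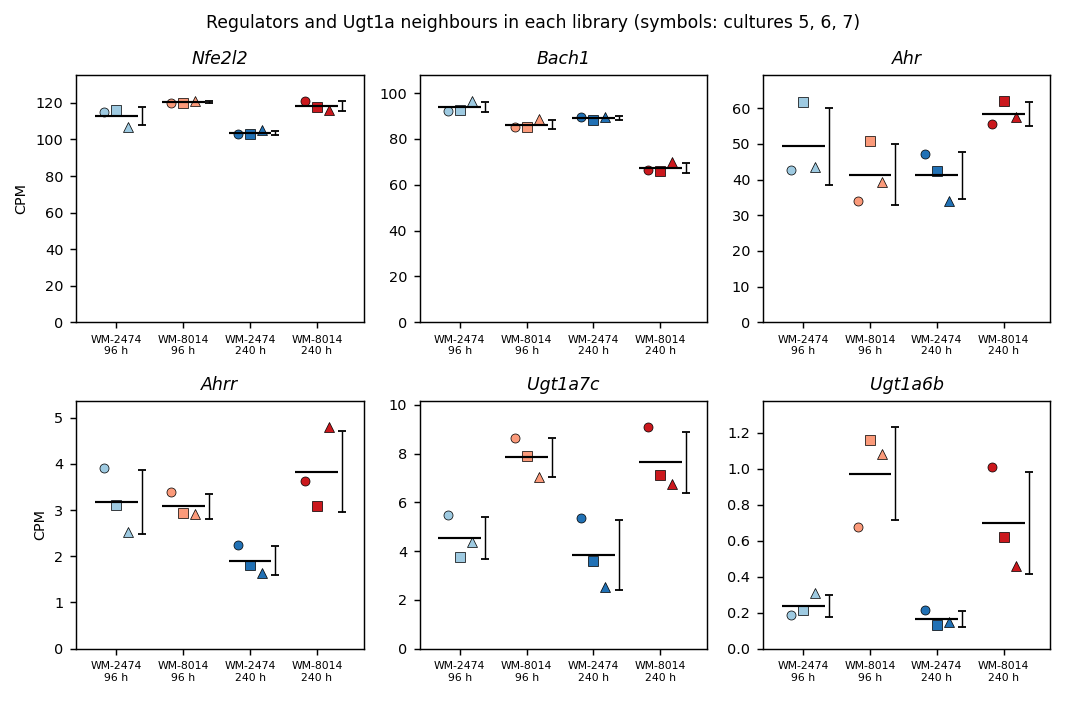
Level in CPM (vertical axis, from 0) of 4 regulators and of Ugt1a7c and Ugt1a6b in the 12 libraries, with the group mean and SD. Bach1 is lowest in the 3 WM-8014 240 h libraries, and Ahrr is lowest in the 3 WM-2474 240 h libraries.

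Other genes of the same pathways were read from lists. Beside their counts stand the shares of all genes that passed, 22.8% at 96 h and 42.6% at 240 h. Of 10 further detoxification genes regulated by NRF2, 5 were higher with WM-8014 and none lower at 96 h (median 0.18), and 7 were higher and none lower at 240 h (median 0.33). Without the libraries that stood apart 2 were higher at 96 h. Ptgr1, a reductase of prostaglandins and lipid aldehydes, was higher at 96 h (0.50, adjusted p = 2.46e-06) and 240 h (0.43, adjusted p = 2.72e-06), and also at 96 h without those libraries (0.50, adjusted p = 0.00247). Ephx1, the microsomal epoxide hydrolase, was higher at both times (0.21, adjusted p = 0.000551, and 0.36, adjusted p = 1.47e-07), the first lost without them (0.20, adjusted p = 0.0522). Aox1, aldehyde oxidase, went from 12.5 ± 1.4 CPM with WM-2474 to 20.7 ± 0.93 CPM with WM-8014 (SD, n = 3) at 240 h (0.74, adjusted p = 2.96e-07), after 0.30 at 96 h (adjusted p = 0.0188, lost in 5 of 22 other settings, among them without those libraries at 0.186).

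In the list of 15 other genes of glutathione supply and use, 4 were higher and none lower at 96 h, and 8 were higher and 2 lower at 240 h (medians 0.15 and 0.10). The shares over all genes were 22.8% and 42.6%. The 4 at 96 h were Gstm2, Mgst1, Gpx4 and Glrx, each given below also without the libraries that stood apart. Gss, glutathione synthetase, was higher at 240 h (0.51, adjusted p = 4.01e-08). Gstm2, a glutathione transferase with close relatives that may share reads, was higher at both times (0.72, adjusted p = 7.99e-05, and 0.68, adjusted p = 1.24e-05), and at 96 h also without those libraries (0.88, adjusted p = 0.00369). Glrx, glutaredoxin, was higher at 96 h (0.32, adjusted p = 0.0175) and at 240 h (0.65, adjusted p = 3.28e-05). Mgst1, a membrane-bound transferase, was higher at both times (0.60, adjusted p = 0.00318, and 0.62, adjusted p = 0.00208), as was Gpx4, the lipid peroxide reductase (0.21, adjusted p = 0.00982, and 0.28, adjusted p = 0.000384). Without the libraries that stood apart the 96 h adjusted p was 0.167 for Glrx, 0.0918 for Mgst1 and 0.137 for Gpx4, and without WM-8014 96 h culture 5 it was 0.0636 for Gpx4. The 2 that were lower at 240 h, named here after their values were seen, were Slc3a2, the partner subunit of the Slc7a11 transporter (-0.19, adjusted p = 0.0011), and Gstm1 (-0.36, adjusted p = 0.0152).

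For the lists in this paragraph the shares of all genes that passed were again 22.8% at 96 h and 42.6% at 240 h. Of 12 genes of the thioredoxin and peroxiredoxin system, 2 were higher and 3 lower at 96 h, and 4 were higher and 2 lower at 240 h (medians 0.03 and 0.01). Without the libraries that stood apart none passed at 96 h. At 240 h Txnrd3, a reductase best known from testis, was higher (0.64, adjusted p = 3.75e-07), Prdx5, a mitochondrial and peroxisomal peroxiredoxin, was higher (0.34, adjusted p = 2.67e-07), and Prdx4, the peroxiredoxin of the endoplasmic reticulum, was lower (-0.52, adjusted p = 9.85e-09). Of 7 genes that supply NADPH none passed at 96 h and 3 were higher at 240 h (median 0.10), namely Me1, malic enzyme (0.25, adjusted p = 0.000113), Taldo1, transaldolase (0.21, adjusted p = 0.00273, and 0.0503 without culture 5), and Pgls (0.16, adjusted p = 0.049, lost in 15 of 22 other settings). Of 8 genes of haem and iron handling 2 were higher and 1 lower at each time (medians 0.07 and 0.03). Without the libraries that stood apart none passed at 96 h, with adjusted p values of 0.0862 for Fth1 (0.18), 0.0834 for Tfrc (-0.45) and 0.277 for Fech (0.14). Fth1, the ferritin heavy chain, was higher at both (0.25, adjusted p = 0.000183, and 0.41, adjusted p = 6.39e-08), Ftl1, the light chain, at 240 h (0.28, adjusted p = 1.18e-05), and Fech, ferrochelatase, at 96 h (0.14, adjusted p = 0.021, lost in 8 of 22 settings). Both ferritin genes have many processed copies in the genome, so their reads may be divided. Tfrc, the transferrin receptor that takes up iron, was lower at both times (-0.49, adjusted p = 0.00168, and -0.74, adjusted p = 5.56e-05).

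Only 3 of 8 other AhR targets on the list were above the filter. Nfil3, a transcription factor, was higher with WM-8014 at 96 h (0.24, adjusted p = 0.00811), and Ereg, the growth factor epiregulin, at 240 h (0.91, adjusted p = 0.00164, and 0.0531 without culture 5). The Nfil3 call was lost without WM-2474 96 h culture 7 (adjusted p = 0.0591), without culture 7 (adjusted p = 0.133) and without the libraries that stood apart (adjusted p = 0.0929). Lpcat2 passed at neither time.

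The genes whose levels followed a member most closely were found as those with the smallest mean absolute difference of centred log2 CPM over the 12 libraries, among 12180 genes. For Nqo1 these were Csf1, S100a4 and Serpinb9b, at 0.07, 0.08 and 0.09 (median over the pool 0.37). Csf1, a macrophage growth factor, had group means of 401 and 494 CPM at 96 h and 373 and 747 CPM at 240 h, WM-2474 first. For Cyp1b1 they were Skap2, Abca2 and Mgat5, at 0.04, 0.07 and 0.07 (pool median 0.24). For Ugt1a6a they were Angptl4, Dhrs3 and Ssc5d, at 0.19, 0.20 and 0.23 (pool median 0.70), and Angptl4, a secreted inhibitor of lipoprotein lipase, went from 2.01 to 5.39 CPM at 96 h and from 3.59 to 8.42 CPM at 240 h. The points share libraries and depth, and likeness of level is a description of these 12 libraries.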

How the data were processed

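Silica-column RNA was made into stranded poly(A) libraries, per the labels' protocols. The deposited table holds raw read counts per Entrez gene, which the authors obtained with featureCounts on mm10, per the submitters' processing notes. Aligner, annotation and strand setting: not given in the sources used here, so reads of overlapping or antisense genes may not be separated. Of 27179 genes 25275 were matched to RefSeq symbols of GRCm38.p6.

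The deposited counts were tested in edgeR 4.0.16 (R 4.3.3). Genes were filtered by group with filterByExpr, which kept 14136 genes and at least 99.93% of reads, and scaled by TMM. A mean for each group was fitted to all 12 libraries (common biological coefficient of variation 4.64%), followed by robust quasi-likelihood testing (two-sided) with Benjamini-Hochberg adjustment over all genes tested, passing under 0.05. The SE is the log2 fold change over the root of F, and intervals are at 95%. The 22 other settings were DESeq2 1.42.0, its size factors, no filter, only the groups compared, the culture number as a block, thinned libraries and left-out libraries. The p-values measure the spread between these cultures. Replicate pairs had a chi-square per degree of freedom of 2.1 to 7.13, so none was treated as a duplicate.

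Same-numbered cultures deviated together at 96 h (correlations across genes 0.14, 0.15 and 0.16, each above 0.1), and the numbers were taken as pairs there. For 240 h the correlations came to 0.064, 0.24 and 0.048, which was not taken as pairing. Over all groups the 18 same-numbered pairs had a mean of 0.11 (0.029 to 0.24), against -0.055 (-0.18 to 0.097) for the 36 others. All 12 libraries correlated best with their own number. Pairing at 240 h is therefore not excluded, and the main tests leave the number out at both times.

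All 10 members, 6 regulators and Cyp1a1 are named whatever their values, and up to 3 passing genes of each list by smallest p at each time. The members and lists were chosen with earlier results of these data known. The list symbol of the transferrin receptor was corrected to Tfrc after the counts were read. The test was also run on simulated counts drawn without culture effects, and no conclusion is drawn from that run here.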

Additional observations from a re-analysis of the deposited data

Results flagged for a closer look

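For 40 genes (the members, the regulators and the other named genes of the lists) the difference of the compound effects at 240 and 96 h was asked. In edgeR's interaction test 12 passed, against 10.7% of all genes. The other named genes were picked by smallest p in the compound comparisons of these same data. The 12 are therefore not an independent count and are given as a description. Among the members the log2 difference was 0.48 for Nqo1, 0.47 for Hmox1 and -0.42 for Gsr, and each effect at 240 h had the sign of that at 96 h. Among the regulators it was -0.28 for Bach1, 0.94 for Ahrr (adjusted p = 0.0432) and 0.27 for Mafk (adjusted p = 0.0372), whose difference of -0.24 at 96 h was 0.03 at 240 h. Among glutathione and peroxiredoxin genes it was 0.36 for Gss (adjusted p = 0.00254), -0.35 for Prdx4 (adjusted p = 0.000919) and 0.23 for Prdx5 (adjusted p = 0.00949). It was 0.25 for Me1 (adjusted p = 0.0126), 0.19 for Ftl1 (adjusted p = 0.0458) and 0.44 for Aox1 (adjusted p = 0.0245). With the pair of libraries that stood apart removed, the adjusted p was 0.19 for Mafk, 0.188 for Prdx5, 0.0581 for Me1, 0.222 for Ftl1, 0.263 for Aox1 and 0.11 for Hmox1, and the others passed.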

How the results depend on the processing

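Over 50 member results and 1090 alternatives, 966 kept direction and side of the threshold, 51 lost the call, 31 gained it and 42 changed sign; for 47 results of list genes and 1034 alternatives the counts were 923, 85, 9 and 17. No member call changed sign. The 240 h compound differences of Nqo1, Hmox1, Srxn1, Gsr, Cyp1b1 and Ugt1a6a passed in all 22 settings. Without the 2 WM-2474 96 h libraries that stood apart, 869 genes and 1 member passed for the compounds at 96 h, 2710 genes and 1 member for time under WM-2474, and 586 genes for the interaction. Leaving out single libraries or cultures gave 1750 to 3392 genes at 96 h (2053 without WM-2474 culture 7, the deepest library), 724 to 1603 for the interaction, and 1 to 5 members for time under WM-2474. The culture number as a replicate block moved no count of calls by over 1.5 times (3590 genes at 96 h). Where the numbers were not taken as pairs it brought past the threshold Txnrd1 (adjusted p = 0.0133) and Ahr (0.0328) at 240 h, Hmox1 over time under WM-2474 (0.000573) and the Cyp1b1 interaction (0.0102), and it lost no call of a member or regulator. All 12 libraries correlated best with their own number.

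Sign changes were found only in differences that did not pass. With libraries or cultures left out, Gclc ran from -0.02 to 0.09 at 96 h and from -0.10 to 0.03 over time under WM-2474, and Nqo1 from -0.13 to 0.00 there. Txnrd1 ran from -0.04 to 0.08 over time under WM-2474, -0.08 to 0.10 under WM-8014 and -0.09 to 0.08 for the interaction. Cyp1b1 ran from -0.06 to 0.11 over time under WM-8014. The interaction ran from -0.05 to 0.14 for Gclm and -0.28 to 0.08 for Ugt1a6a. Among regulators Keap1 ran from -0.01 to 0.02 at 96 h and -0.11 to 0.06 at 240 h, Ahrr from -0.17 to 0.18 at 96 h and Arnt from -0.02 to 0.08 at 240 h. With the 2 libraries that stood apart left out the values were -0.02 for Gclc, 0.01 for Keap1 and -0.34 for Ahrr at 96 h, -0.03 for Txnrd1 over time under WM-2474, and 0.03 for Txnrd1 and 0.05 for Ugt1a6a in the interaction. With thinned libraries they were 0.03 for Gclc under WM-2474, -0.01 for Txnrd1 under WM-8014 and 0.00 for Ahrr at 96 h. With the block they were 0.00 for Txnrd1 under WM-8014 and 0.00 for Keap1 at 96 h, and with only the 2 groups compared 0.00 for Keap1. The causes were not tested. Depth leaves Cyp1a1, with at most 4 reads in a library, without a test.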
